A study of Mus musculus with 28 samples.

Results

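The glutathione and thioredoxin systems keep a cell's interior reducing. The 9 genes described here are the core of both systems and of the stress response that feeds them: Mgst3, Gclc, Gclm, Gsr, Slc7a11, Txnrd1, Txn1, Hmox1 and Nqo1. They were taken by name, and each was followed through its brightest probe set over 14 groups of mouse T cells. All 9 are among the 18194 genes that the array names, and 7 of them lay over the detection level often enough to be tested with 9872 genes in all. The members and the gene lists were chosen with earlier results of these data known.

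Glutathione is made from glutamate, cysteine and glycine. Glutamate-cysteine ligase, whose catalytic and modifier subunits are Gclc and Gclm, carries out the limiting step, and Slc7a11 brings in cystine as a source of cysteine. Gsr reduces oxidised glutathione, and Mgst3 is a membrane-bound enzyme that spends glutathione on lipid hydroperoxides and other electrophiles. Txn1 reduces protein disulfides and is itself reduced by Txnrd1. Hmox1 breaks down haem and Nqo1 reduces quinones. Most of these genes are classical targets of NRF2, a transcription factor that Keap1 holds back in unstressed cells. In T cells glutathione supports the growth that follows activation.

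Romidepsin and vorinostat inhibit histone deacetylases, the enzymes that take acetyl groups off histones and other proteins. CD8 and CD4 T cells had been isolated from mouse spleen by removal of all other cells, stimulated for 2 days with anti-CD3 at 3 µg/ml on the plate and anti-CD28 at 5 µg/ml in solution, and then treated for 1 day. In each cell type the 7 groups were no drug (control), romidepsin at 2, 10 and 30 nM and vorinostat at 0.5, 2 and 10 µM, with 2 arrays in each group and 28 arrays in all. Every culture, controls included, was stimulated in the same way and grown in medium that held beta-mercaptoethanol, itself a reducing agent. The labels name no strain, age, sex or vehicle. They do not say whether the arrays of a group came from separate animals or cultures. Sex-linked genes, given below, show that the 2 arrays of each group had sources of different sex. Without the replicate block described below, p-values measure a spread that holds this difference. With the block, the spread that is left may be technical.

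Values are log2 GCRMA intensities, so 1 unit is a change of 2-fold, and the detection level was 4.27. From 8447 to 9322 genes lay over that level per array. Arrays of replicate 1 and replicate 2 stood apart. The Y-linked gene Eif2s3y read 11.36 to 12.02 in the 14 replicate 1 arrays and 2.25 in every replicate 2 array, and Xist, the RNA of the inactive X chromosome, read 2.27 in replicate 1 and 11.69 to 12.72 in replicate 2. Sex of the source and replicate number therefore cannot be told apart. Each group holds 1 array of each replicate, so changes are given within each replicate, and a second fit took replicate, separately in CD4 and in CD8 arrays, as a block. The blocked p is printed for the members where it changes a call. For other genes the blocked counts are given by list. The T cell genes Cd3d, Cd3e and Cd3g lay over the detection level in all 28 arrays. Cd8a read 9.34 to 11.99 in CD8 arrays and at most 6.07 in CD4 arrays. Cd8b1 read 9.94 to 12.60 in CD8 arrays and 5.32 to 8.28, over the detection level in all 14, in CD4 arrays. Cd4 read at most 2.34 in CD8 arrays and 2.39 to 8.55 in CD4 arrays, over the detection level in 11 of the 14.

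Promoters are shown for the member that changed most and for one whose change depended on the fit, because NRF2 acts at a short element written TGACNNNGC in the strict form and TGANNNNGC in the loose form. The sequences are RefSeq's, on GRCm38.p6, 5′ to 3′ on the gene's strand. The Mgst3 stretch, chr1:167393842-167394091 on the minus strand, is the 250 bases before the start. The Gclm stretch, chr3:122245307-122245486 on the plus strand, is 180 bases that end before the first annotated transcript. Capitals mark a match to the strict form, read on either strand.
Mgst3: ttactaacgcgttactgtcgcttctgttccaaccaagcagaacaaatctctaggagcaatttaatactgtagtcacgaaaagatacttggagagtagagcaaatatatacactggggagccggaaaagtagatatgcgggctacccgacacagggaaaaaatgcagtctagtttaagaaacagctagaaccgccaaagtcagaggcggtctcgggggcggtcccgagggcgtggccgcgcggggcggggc
Gclm: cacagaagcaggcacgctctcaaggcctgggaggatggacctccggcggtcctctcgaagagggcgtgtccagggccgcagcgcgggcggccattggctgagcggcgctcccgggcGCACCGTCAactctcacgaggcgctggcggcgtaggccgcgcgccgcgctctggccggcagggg

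The Mgst3 stretch holds neither form, and the Gclm stretch holds 1 strict match, 134 to 126 bases before the start of the window's transcript. Among the 250 bases before the starts of all 32851 promoters in the RefSeq table, 10.2% hold the strict form and 35.2% the loose form, of which the strict form is a part. The table held 8 windows for 6 of the 9 members, and 2 of the 8 hold the strict form, 1 of Gclm and 1 of Txnrd1. A further 2 hold only the loose form, 1 of Slc7a11 and 1 of Txnrd1. A match or its absence in such a window says nothing about binding in these cells.

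Mgst3 was the member that changed most. Its level was higher with either drug in both cell types at every dose, in both replicates, and it rose past the test at the middle and the top doses. At the top doses the rise was 2.70 log2 units with romidepsin and 2.91 (7.51-fold) with vorinostat in CD8 cells, and 4.09 and 4.12 (17.4-fold) in CD4 cells. No other member rose past the test in the fit without the block.

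In CD4 cells Mgst3 read 6.44 and 7.70 in controls (replicate 1 and replicate 2), 8.41 and 8.32 with romidepsin at 2 nM, 10.75 and 10.40 at 10 nM, and 11.08 and 11.24 at 30 nM. With vorinostat it read 8.78 and 8.80 at 0.5 µM, 10.44 and 10.24 at 2 µM, and 11.19 and 11.20 at 10 µM. All 12 drug arrays lay over both control arrays, and the control arrays were the pair that differed most, with an SD of 0.89 against at most 0.25 in the drug groups (n = 2). In CD8 cells it read 8.31 and 8.61 in controls, 8.87 and 8.91 with romidepsin at 2 nM, 10.41 and 9.84 at 10 nM, and 11.31 and 11.01 at 30 nM. With vorinostat it read 9.65 and 9.69 at 0.5 µM, 11.10 and 10.97 at 2 µM, and 11.29 and 11.45 at 10 µM. Again all 12 drug arrays lay over both controls, and the value was higher at every dose step in all 8 series of 3 doses (2 drugs, 2 cell types, 2 replicates). Within a cell type and replicate the 2 drugs share 1 control array, so the 8 series are not separate. The share of all genes that rise at every step was not counted. For arrays said to lie over or under controls, here and below, the share of all genes that do so was not counted either.

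**Figure D1:**
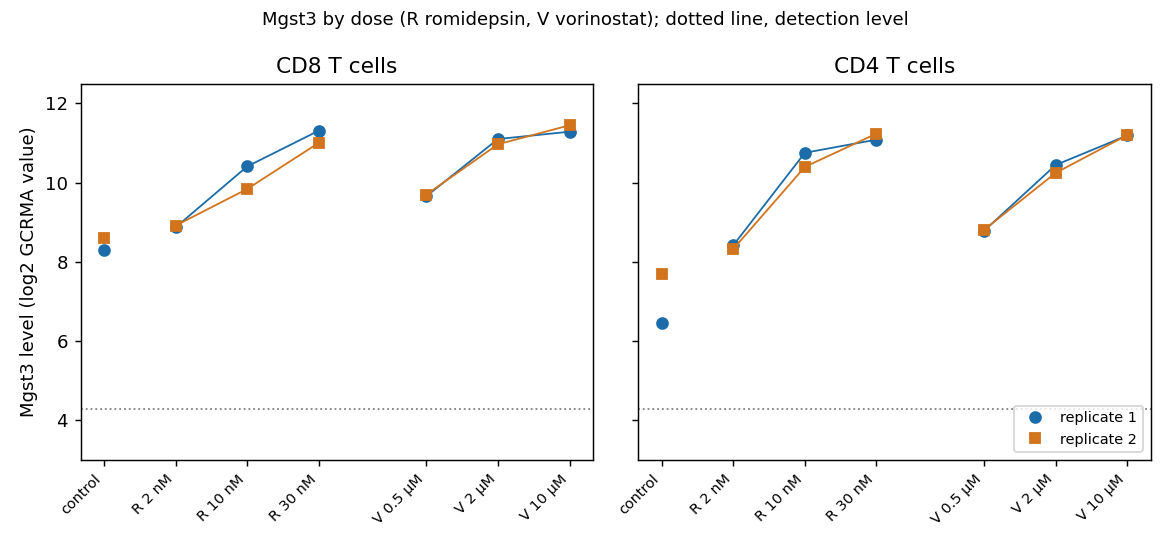
Mgst3 level (log2 GCRMA value, y axis) by dose of romidepsin (R) and vorinostat (V) in CD8 T cells (left) and CD4 T cells (right). Each point is 1 array, circles are replicate 1, squares replicate 2, lines join the doses of a drug within a replicate and the dotted line is the detection level of 4.27. All drug arrays lie over the controls of their cell type, and at the top doses both cell types reach 11.01 to 11.45.

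The change in CD4 cells was 3.5 ± 0.30 log2 units (standard error, n = 2 arrays a group) with romidepsin at 10 nM and 4.09 ± 0.30 at 30 nM (limma, adjusted p = 3.6e-06 and 5.3e-07). Of all genes tested, 6.32% and 13.3% rose in these comparisons. With vorinostat it was 3.27 ± 0.30 at 2 µM and 4.12 ± 0.30 at 10 µM (adjusted p = 2.6e-05 and 6.5e-07), where 1.08% and 10.9% of genes rose. In CD8 cells the change was 1.66 ± 0.30 with romidepsin at 10 nM and 2.70 ± 0.30 at 30 nM (adjusted p = 0.0085 and 2.7e-05), where 1.11% and 7.89% of genes rose. With vorinostat it was 2.58 ± 0.30 at 2 µM and 2.91 ± 0.30 at 10 µM (adjusted p = 0.00019 and 8.7e-06), where 2.55% and 12.1% rose. Without replicate 1 of the CD4 control, the lower one, the 4 CD4 changes were 2.87, 3.46, 2.64 and 3.49 and still passed. The call with romidepsin at 10 nM in CD8 cells was the least steady: the change was 1.69 with arrays set to equal medians (adjusted p = 0.060), 1.38 without replicate 1 of that group (adjusted p = 0.22) and 1.51 without replicate 1 of the CD8 control (adjusted p = 0.14). Here as in all bulk samples, more RNA per cell and more cells of a type that holds the RNA cannot be told apart.

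At the lowest doses the table as a whole moved little, with calls for 0.0304% of genes in CD4 cells with romidepsin, 0.0101% in CD4 cells with vorinostat, and 0% in CD8 cells with either drug. Mgst3 differed by 1.29 ± 0.30 in CD4 cells with romidepsin at 2 nM (adjusted p = 0.41) and by 1.72 ± 0.30 with vorinostat at 0.5 µM (adjusted p = 0.073). With the replicate block both passed (adjusted p = 0.042 and 0.018), as did 0.821% and 0.192% of genes in the same direction. The within-replicate changes were 1.97 and 0.62 for romidepsin and 2.33 and 1.10 for vorinostat, larger in replicate 1, whose control was lower. In CD8 cells the differences were 0.43 ± 0.30 with romidepsin (adjusted p = 1) and 1.22 ± 0.30 with vorinostat (adjusted p = 0.63, and 0.051 with the block).

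Between neighbouring doses Mgst3 gave the only call among the members, 2.21 ± 0.30 for romidepsin at 10 nM over 2 nM in CD4 cells (adjusted p = 0.00063), where 4.27% of genes were called in either direction. Over the other 7 steps the background was 0.122% for romidepsin at 30 over 10 nM and 0.0101% and 5.42% for vorinostat at 2 over 0.5 µM and 10 over 2 µM in CD4 cells. In CD8 cells it was 0.213% and 0.466% for the 2 steps of romidepsin and 0.162% and 4.88% for those of vorinostat. With the block 6 of the 8 steps of Mgst3 passed, at 1.55 and 0.85 for the vorinostat steps in CD4 cells, 1.23 and 1.04 for the romidepsin steps in CD8 cells and 1.36 for vorinostat at 2 over 0.5 µM in CD8 cells, with an adjusted p of 0.0096, 0.023, 0.021, 0.020 and 0.0089. The steps that did not were romidepsin at 30 over 10 nM in CD4 cells (0.59 ± 0.30) and vorinostat at 10 over 2 µM in CD8 cells (0.33 ± 0.30), both at levels near the top of its range. With the block, the share of genes called higher was 22.2%, 2.83% and 25.9% in the CD4 steps that passed and 3.31%, 12.8% and 7.38% in the CD8 steps that passed.

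Untreated CD8 cells held more Mgst3 than untreated CD4 cells, by 1.39 ± 0.30 log2 units (adjusted p = 0.0084), where 6.22% of genes were called in either direction. The call depended on single arrays: without replicate 1 of the CD4 control it was 0.76 (adjusted p = 0.15), and without replicate 2 of the CD8 control 1.24 (adjusted p = 0.098). At the top doses the cell types overlapped with romidepsin (11.31 and 11.01 in CD8 cells, 11.08 and 11.24 in CD4 cells). The CD8 response minus the CD4 response was below 0 at every dose, from -1.84 ± 0.42 with romidepsin at 10 nM to -0.50 ± 0.42 with vorinostat at 0.5 µM. None of the 6 differences passed (adjusted p = 0.12 at the lowest).

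With the block the difference in Mgst3 response passed for romidepsin at 10 nM (adjusted p = 0.014) and 30 nM (-1.39, adjusted p = 0.026) and not for vorinostat at 10 µM (-1.21, adjusted p = 0.063). Without replicate 2 of the CD4 control, the higher one, the romidepsin differences were -2.47 and -2.02. Without replicate 1 of that control the CD4 changes were smaller, as given above, so these differences shrank. The size of these differences thus moves with which CD4 control array is used, and both share the control arrays. Over all 7 tested members and 6 such comparisons the fit without the block called 0, against 6 with the block and 5 at an unadjusted p under 0.05. The share of all genes called was 0% and 0% at the lowest doses, 0.0709% with romidepsin at 10 nM, 1% at 30 nM, 0.0101% with vorinostat at 2 µM and 0.577% at 10 µM. With the block it was 8.4%, 17.6% and 10.7% for romidepsin at 10 and 30 nM and vorinostat at 10 µM.

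Over the 14 group means, the genes whose pattern was most like that of Mgst3 were Clec2i (Pearson's r = 0.983), Tmem38b (0.983), Tctex1d2 (0.980), Nmt2 (0.978) and then Mylpf. The group means share arrays, drugs and doses, and the values only describe likeness.

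**Figure D2:**
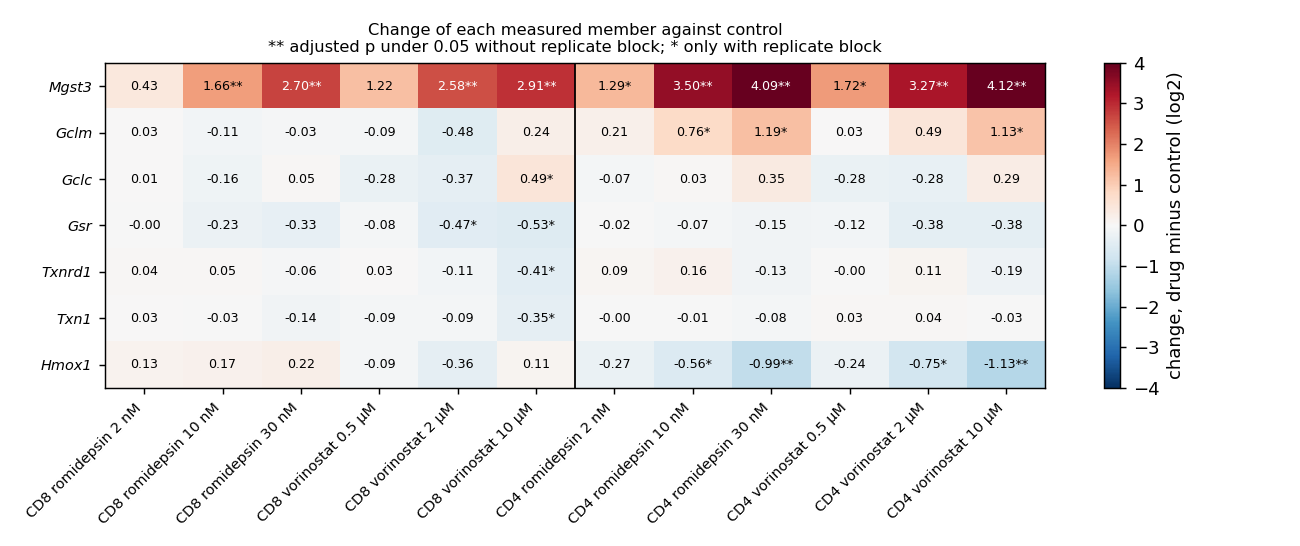
Change against control (log2, colour and printed value) of the 7 tested members in each drug group, CD8 cells on the left and CD4 cells on the right, doses from low to high. A pair of asterisks marks an adjusted p under 0.05 without the replicate block and 1 asterisk a call with the block only. Mgst3 reaches 4.12 in CD4 cells and 2.91 in CD8 cells, and Hmox1 -1.13 in CD4 cells.

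Glutathione synthesis was represented by both subunits of the ligase. Gclm was higher in CD4 cells at the middle and the top doses in both replicates, but the replicates lay far apart, and at 3 of these 4 doses it passed the test with the block only. Gclc passed no comparison without the block. The transporter Slc7a11 was not detected.

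Gclm in CD4 cells read 6.84 and 8.34 in controls, 7.29 and 8.32 with romidepsin at 2 nM, 8.07 and 8.65 at 10 nM, and 8.43 and 9.14 at 30 nM. With vorinostat it read 7.01 and 8.23 at 0.5 µM, 7.72 and 8.46 at 2 µM, and 8.29 and 9.15 at 10 µM. Within each replicate the level at the top doses was over that of the control, while the groups overlapped except for romidepsin at 30 nM, because replicate 2 was higher throughout. The change was 0.76 with romidepsin at 10 nM, 1.19 at 30 nM and 1.13 with vorinostat at 10 µM, each ± 0.62 (adjusted p = 0.60, 0.20 and 0.25). With the block the standard error was 0.18 and the adjusted p 0.0032, 5.1e-05 and 9.2e-05. The share of genes that rose in those fits was 26.2%, 35.4% and 31.9%, so a call there sets a gene little apart. Within replicates the rise at 30 nM was 1.59 and 0.79.

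In CD8 cells Gclm read 8.33 and 8.98 in controls and lay between 7.57 and 8.48 in replicate 1 and between 8.79 and 9.29 in replicate 2 with either drug. No CD8 change passed with or without the block (-0.48 to 0.24). The CD8 response was below the CD4 response by 1.22 ± 0.87 with romidepsin at 30 nM and 0.89 ± 0.87 with vorinostat at 10 µM, calls made with the block only (adjusted p = 0.0058 and 0.039, against 1 without it). Untreated CD8 cells read 1.06 ± 0.62 higher than untreated CD4 cells (adjusted p = 0.50), by 1.48 in replicate 1 and 0.64 in replicate 2. The block is separate in each cell type, so its difference between controls is the one fitted for replicate 1, not a mean over replicates. That difference was 1.13 ± 0.20 (adjusted p = 0.00038), where 20.3% of genes were called higher.

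A second Gclm probe set, over the detection level in 25 arrays, differed from its control in CD8 cells by 0.69 with romidepsin at 30 nM and 1.18 with vorinostat at 10 µM. In CD4 cells replicate 1 of the control lay under that level, and within replicate 2 the differences were 1.61 and 1.57. The probe sets thus give the same direction in CD4 cells and different sizes, and in CD8 cells with romidepsin at 30 nM the brighter one read -0.03.

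Gclc, the catalytic subunit, lay between 6.90 and 8.43 over all 28 arrays. It read 7.85 and 8.43 in CD8 cells with vorinostat at 10 µM, against 7.27 and 8.03 in CD8 controls, a change of 0.49 ± 0.56 (adjusted p = 0.64, and 0.016 with the block, where 31.6% of genes rose). This value followed a low at 2 µM of 6.90 and 7.66, so the last vorinostat step was 0.86 ± 0.56 in CD8 cells and 0.57 ± 0.56 in CD4 cells (adjusted p = 0.00096 and 0.011 with the block). The last vorinostat step of Gclm was 0.71 ± 0.62 in CD8 cells and 0.64 ± 0.62 in CD4 cells (adjusted p = 0.0065 and 0.011 with the block), so both subunits moved the same way between 2 and 10 µM. Gclm also stepped up by 0.56 ± 0.62 between romidepsin at 2 and 10 nM in CD4 cells (adjusted p = 0.026 with the block). With the block, 22.8% of genes rose in the last vorinostat step in CD8 cells and 25.9% in CD4 cells. In the romidepsin step in CD4 cells 22.2% rose.

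Slc7a11, the cystine transporter, read 2.25 to 2.28 in all 28 arrays on its brighter probe set and at most 2.27 on the other. Nqo1, the quinone reductase, read 2.25 to 2.30 in all 28 arrays. Both stayed under the detection level in every group and were not tested, which bounds what the probe sets could see and does not show that the RNA was absent.

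**Figure D3:**
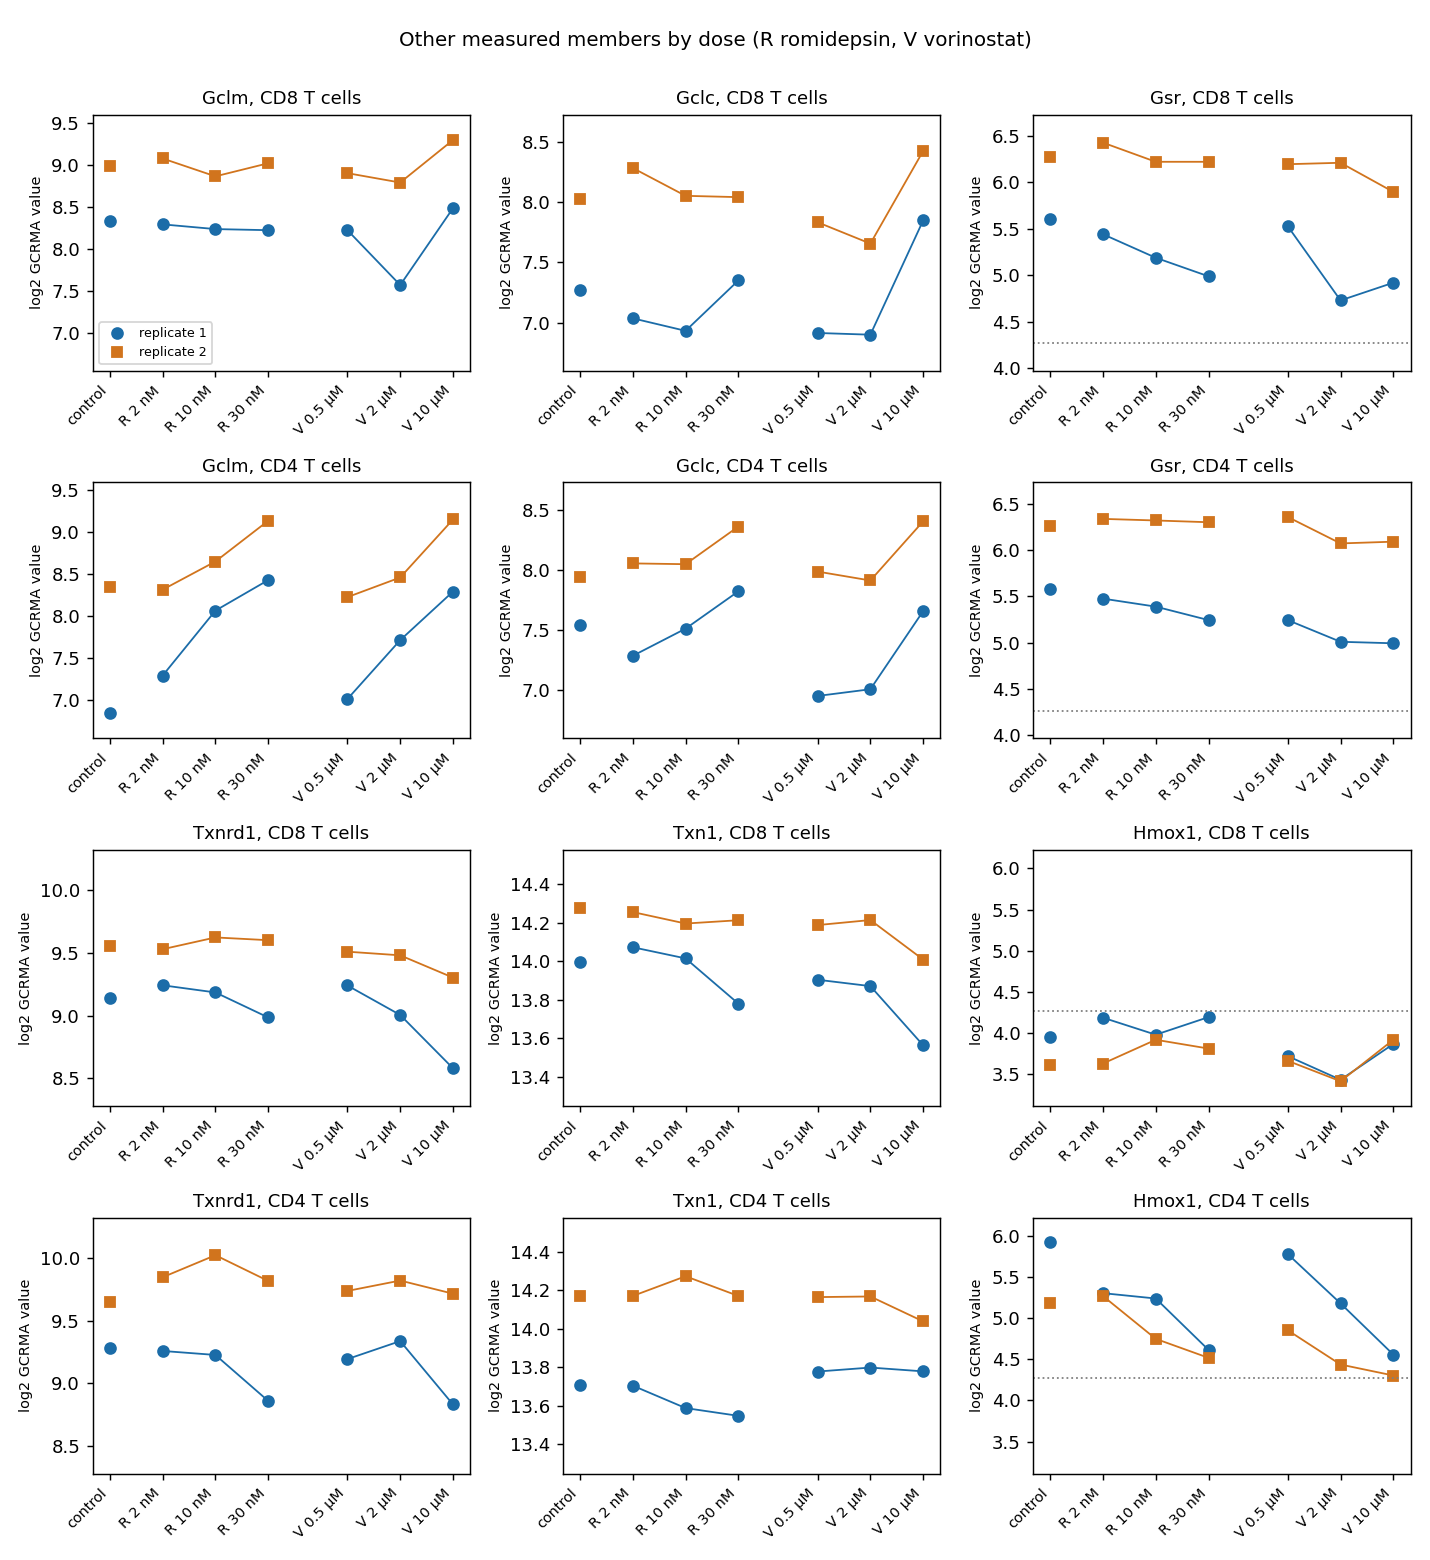
Levels (log2 GCRMA value, y axes) of Gclm, Gclc, Gsr, Txnrd1, Txn1 and Hmox1 by dose of romidepsin (R) and vorinostat (V), with CD8 cells above CD4 cells. Each point is 1 array, circles replicate 1 and squares replicate 2, lines join doses within a replicate, and the dotted line is the detection level of 4.27 where it falls in range. Hmox1 lies under the line in every CD8 array and over it in every CD4 array.

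The enzymes that recycle glutathione and thioredoxin moved little. Gsr, glutathione reductase, lay between 4.73 and 6.43. In CD8 cells it read 4.92 and 5.90 with vorinostat at 10 µM, against 5.60 and 6.27 in controls, a change of -0.53 ± 0.68 (adjusted p = 0.69, and 0.011 with the block). At 2 µM the change was -0.47 ± 0.68 (adjusted p = 0.98, and 0.035 with the block), with -0.88 in replicate 1 and -0.06 in replicate 2, and without replicate 1 of that group it was 0.27.

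Txnrd1, thioredoxin reductase, read 8.58 and 9.30 in CD8 cells with vorinostat at 10 µM, against 9.14 and 9.56 in controls, a change of -0.41 ± 0.41 (adjusted p = 0.59, and 0.019 with the block). Its sign turned, to 0.15, when the difference between 3′ and 5′ probe sets of beta-actin, a sign of RNA quality, was added to the block. That difference was 1.43 and 1.16 in CD8 cells with vorinostat at 10 µM, against 0.86 and 0.79 in CD8 controls, and its part in the result was not tested further. Txn1, thioredoxin, lay between 13.55 and 14.28 in all 28 arrays. It read 13.56 and 14.01 with vorinostat at 10 µM, against 13.99 and 14.28 in CD8 controls, a change of -0.35 ± 0.30 (adjusted p = 0.50, and 0.0096 with the block). With the block 20.5% of genes fell at 2 µM and 32.4% at 10 µM in CD8 cells, so these small differences are near the background. In CD4 cells none of the 3 genes passed with either fit. Their changes there ran from -0.38 to 0.16.

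Hmox1, haem oxygenase, was detected in CD4 cells only. All 14 CD8 arrays lay under the detection level (3.41 to 4.19) and all 14 CD4 arrays over it (4.30 to 5.92). Hmox1 thus entered testing through its CD4 arrays alone, so the test between controls is not separate support for that difference. In controls it read 3.95 and 3.61 in CD8 cells and 5.92 and 5.19 in CD4 cells, so it was at least 2.44-fold lower in CD8 cells (-1.78 ± 0.32, adjusted p = 0.0024). The call was lost with quantile normalization and with equal array medians, and without replicate 1 of the CD4 control (-1.41, adjusted p = 0.058).

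In CD4 cells Hmox1 read 5.30 and 5.27 with romidepsin at 2 nM, 5.24 and 4.75 at 10 nM, and 4.61 and 4.52 at 30 nM. With vorinostat it read 5.78 and 4.85 at 0.5 µM, 5.18 and 4.44 at 2 µM, and 4.56 and 4.30 at 10 µM. Its level thus fell towards the detection level with dose, and both arrays of each top dose lay under both controls. The change was -0.99 ± 0.32 at 30 nM and -1.13 ± 0.32 at 10 µM (adjusted p = 0.039 and 0.023), the only falls among the members, where 7.91% and 7.1% of genes fell. With the block romidepsin at 10 nM (-0.56, adjusted p = 0.030) and vorinostat at 2 µM (-0.75, adjusted p = 0.012) passed too, where 22% and 15.9% of genes fell. Both calls at the top doses were lost without replicate 1 of the CD4 control (-0.62 and -0.76, adjusted p = 0.34 and 0.25), and with the actin difference described above added to the block (-0.68 and -0.74, adjusted p = 0.071 and 0.11). They were lost too with quantile normalization, equal array medians, eBayes with trend and robust and a fit per cell type (adjusted p = 0.057 to 0.35), and each when either array of its own drug group was left out. With no detection filter the call at 30 nM was lost (adjusted p = 0.057). In CD8 cells, where no level was measured over background, the changes of -0.36 to 0.22 carry no fold. The difference in response between the cell types was called with the block only, at 30 nM and at 10 µM (adjusted p = 0.0097 and 0.012), and its size is not measured.

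Macrophages carry much Hmox1 in spleen. Of 9 marker genes of macrophages and dendritic cells 8 are named by a probe set, and none of the 8 lay over the detection level in any of the 28 arrays, with a summed level (log2) of 5.32 to 5.37. B cell, natural killer cell and T cell markers did move with dose. The summed level of 5 of the 6 B cell markers was 4.92 and 6.43 in CD4 cells with romidepsin at 30 nM. It was 4.79 and 6.87 with vorinostat at 10 µM, against 6.85 and 10.41 in CD4 controls. In CD8 cells the sum was 4.98 and 7.19 with romidepsin at 30 nM and 4.83 and 6.56 with vorinostat at 10 µM, against 7.01 and 9.14 in controls. Pax5, the defining B cell factor, stayed under the detection level in all arrays, and Cd79b reached 9.86. The natural killer list, of which Klrk1 and Eomes are also CD8 T cell genes and Ncr1 and Klra8 stayed under the detection level, summed to 8.88 and 11.63 with romidepsin at 30 nM and 8.02 and 9.85 with vorinostat at 10 µM, against 10.62 and 12.40 in CD8 controls. The T cell list summed to 12.95 and 14.36 and to 12.34 and 13.68 in the same CD8 groups, against 14.30 and 14.97 in controls. In CD4 cells the T cell list summed to 11.88 and 13.13 with romidepsin and 12.13 and 12.95 with vorinostat, against 13.64 and 14.18 in controls. The part of these markers in the results was not tested. The actin difference moved as well, at 1.55 and 0.97 in CD4 cells with romidepsin at 30 nM and 1.62 and 1.09 with vorinostat at 10 µM, against 0.94 and 0.78 in CD4 controls.

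Lists of other genes of the same pathways put the members in context. Unless the block is named, counts are calls in the fit without it over 12 comparisons of a drug group with its control, and no list was tested as a whole. Most calls were at middle and top doses, where the share of genes that rose is given above. The share that fell was 2.32% with romidepsin at 10 nM and 0.334% with vorinostat at 2 µM in CD4 cells, and 0.0101%, 2.93%, 0.75% and 8.5% with romidepsin at 10 and 30 nM and vorinostat at 2 and 10 µM in CD8 cells. With the block these shares were far larger. In CD8 cells 9.06% rose and 8.13% fell with romidepsin at 10 nM, 27.8% and 24.6% at 30 nM, and 16.4% rose with vorinostat at 2 µM and 0.699% at 0.5 µM. In CD4 cells 28.3% fell with romidepsin at 30 nM and 29.3% with vorinostat at 10 µM, 12.4% rose with vorinostat at 2 µM, and 0.101% fell with romidepsin at 2 nM. Counts with and without the block are to be read against these shares. Without the block, the rises among thioredoxin partners, peroxide and superoxide removal, NADPH supply and NRF2 regulators were near or under the shares over all genes. Those among the other NRF2 targets were little over these shares.

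Of the other glutathione transferases 11 of 14 were tested, and of 132 gene by comparison pairs 20 rose and 0 fell, which with the block became 45 and 20. The list's median change at the top doses was 0.98 with romidepsin and 0.97 with vorinostat in CD8 cells and 0.80 and 0.70 in CD4 cells, while the median of all genes lay between 0 and 0.07. Gstk1, a mitochondrial and peroxisomal transferase, read 10.50 and 10.50 with romidepsin at 30 nM and 11.08 and 11.26 with vorinostat at 10 µM, against 7.18 and 8.55 in CD8 controls. In CD4 cells it read 11.49 and 11.68 with romidepsin and 11.38 and 11.38 with vorinostat, against 8.56 and 9.21 in controls. All 8 top-dose arrays lay over the controls of their cell type, for which no share of all genes was counted. The changes were 2.64, 3.31, 2.70 and 2.49, each ± 0.44 (adjusted p = 0.00098, 8.2e-05, 0.00036 and 0.00086).

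Gstm5 was under the detection level in CD8 controls (3.57 and 3.88) and read 6.99 and 6.65 with romidepsin at 30 nM and 6.69 and 6.17 with vorinostat at 10 µM. It was thus at least 5.87-fold and 4.48-fold higher (adjusted p = 0.00023 and 0.00039). In CD4 cells it rose by 1.47 ± 0.43 with romidepsin at 30 nM (adjusted p = 0.023), and its change with vorinostat at 10 µM was 0.74 (adjusted p = 0.29). Gstm1 rose in CD8 cells by 1.46 ± 0.28 and 1.12 ± 0.28 (adjusted p = 0.0025 and 0.0085) and differed by 0.42 and 0.20 in CD4 cells (adjusted p = 0.34 and 0.74). The difference between the cell types was called for neither gene without the block, and with it for Gstm1 with romidepsin at 30 nM (1.04, adjusted p = 0.045). For Gstm5 its size is not measured, since the CD8 controls lay under the detection level. Gstp1, the abundant cytosolic transferase, rose at both top doses in both cell types by 0.79 to 1.01, each ± 0.26. Transferases of a class share long stretches of sequence, and whether these probe sets tell them apart was not tested.

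Of the other genes of glutathione turnover 14 of 18 were tested, and of 168 pairs 15 rose and 5 fell, which with the block became 43 and 17. The enzymes that degrade glutathione split. Ggct, which works on the gamma-glutamyl amino acids that glutathione breakdown releases, rose at the top doses by 1.67 and 1.89 in CD8 cells and 2.00 and 1.96 in CD4 cells, each ± 0.27. Chac1, which cleaves glutathione itself and is induced by ATF4, fell to 4.75 and 5.04 with romidepsin at 30 nM and 5.01 and 5.11 with vorinostat at 10 µM in CD4 cells, against 7.01 and 6.74 in controls. In CD8 cells Chac1 fell by 1.16 ± 0.22 with vorinostat at 10 µM (adjusted p = 0.0014) and differed by -0.68 with romidepsin at 30 nM (adjusted p = 0.059, and 0.0044 with the block). All 5 falls without the block were of Chac1, and with the block 8 of the 17 were. Ggt7, a relative of the gamma-glutamyl transferase, was at least 1.93-fold higher with romidepsin at 30 nM in CD8 cells (adjusted p = 0.00071) and differed by 0.31 in CD4 cells (adjusted p = 0.50). Glrx2, a mitochondrial glutaredoxin, rose in CD4 cells by 1.43 and 1.37, each ± 0.26 (adjusted p = 0.0010 and 0.0017). In CD8 cells Glrx2 was higher too. It read 11.62 and 11.65 with romidepsin at 30 nM and 11.57 and 11.87 with vorinostat at 10 µM, against 10.66 and 10.94 in controls.

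**Figure D4:**
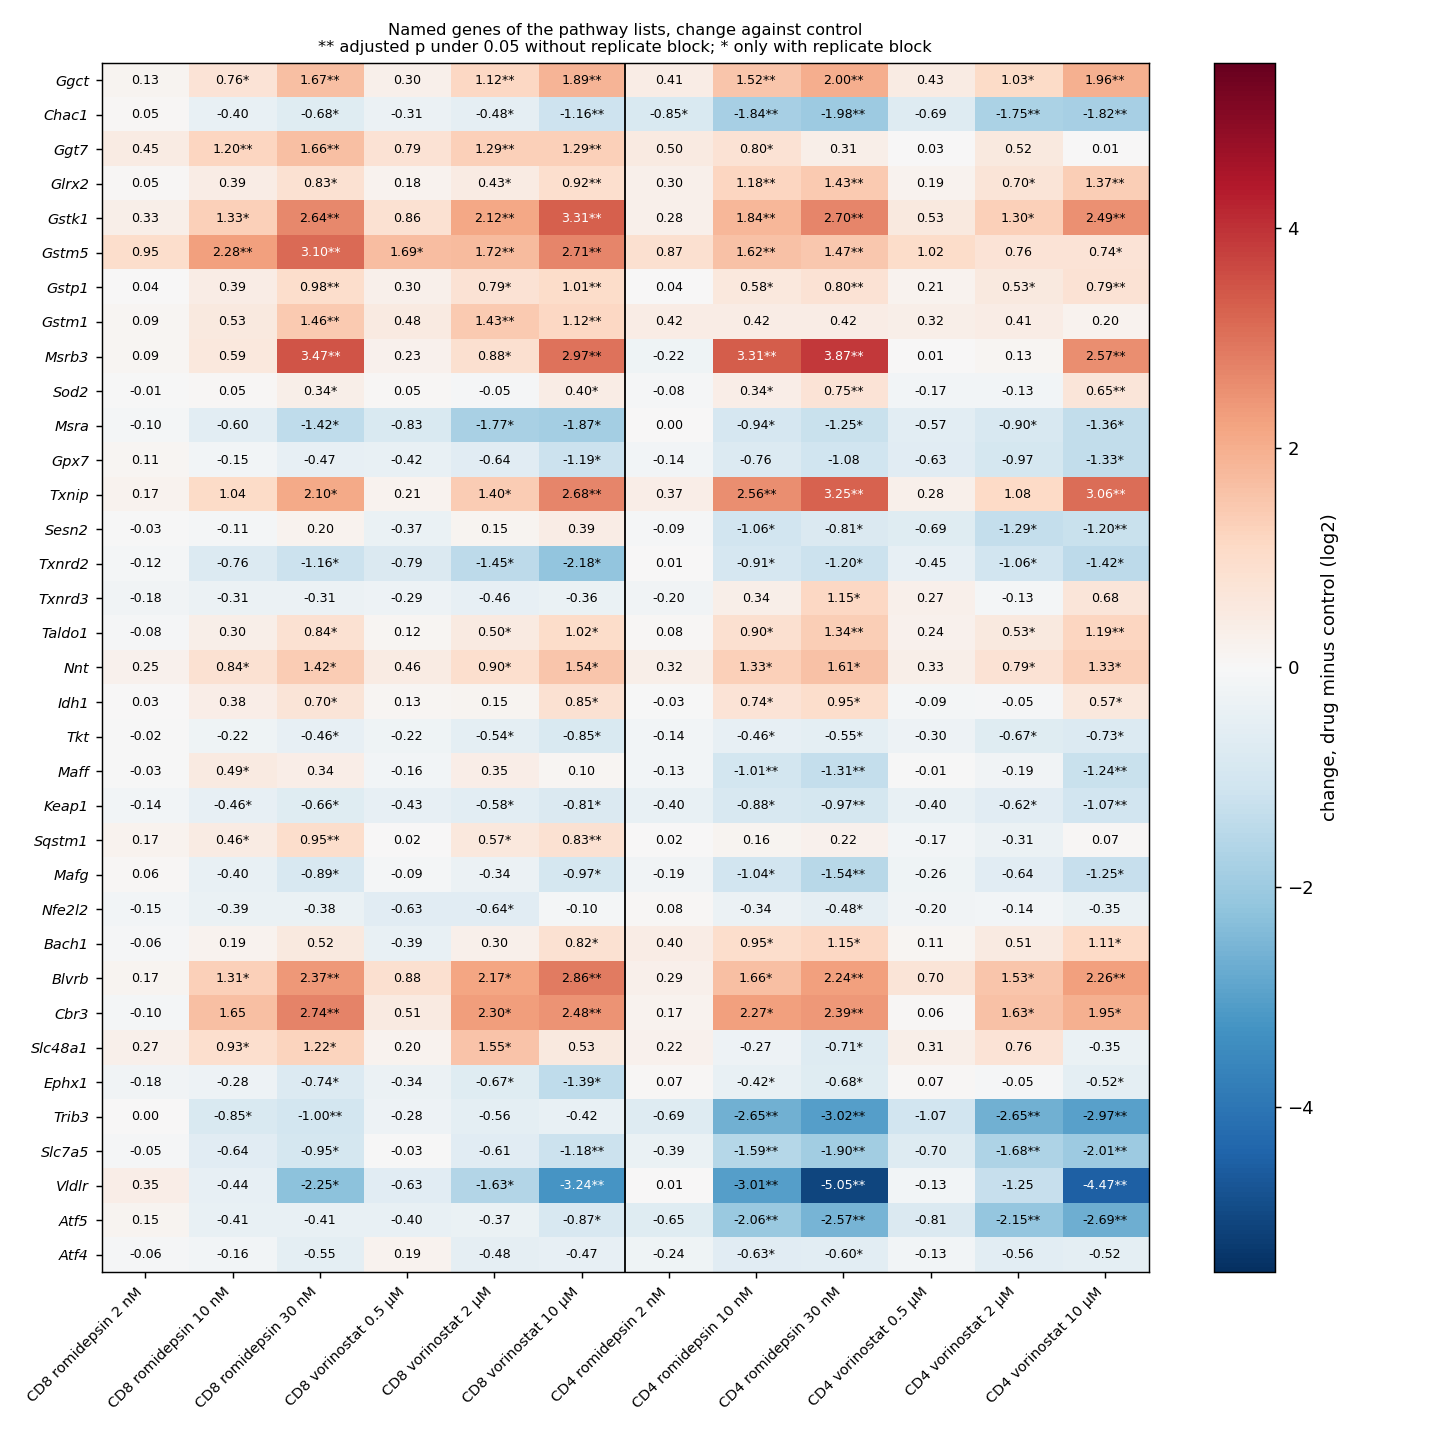
Change against control (log2, colour and printed value) of the pathway genes named by rule, 1 per row in list order, in CD8 cells (left) and CD4 cells (right) with doses from low to high. A pair of asterisks marks an adjusted p under 0.05 without the replicate block and 1 asterisk a call with the block only, and changes from levels under the detection level, such as those of Msrb3, Cbr3 and CD8 Gstm5, are drawn as fitted. Gstk1, Blvrb and Ggct rise at the top doses in both cell types, and Trib3 and Vldlr fall at those doses in CD4 cells, Trib3 in CD8 cells with romidepsin and Vldlr in CD8 cells with vorinostat.

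Of the partners of thioredoxin all 10 were tested, and of 120 pairs 4 rose and 1 fell, which with the block became 22 and 17. The 4 rises were all of Txnip, which binds reduced thioredoxin and holds back its activity. It read 13.65 and 12.74 with romidepsin at 30 nM and 13.68 and 12.34 with vorinostat at 10 µM in CD4 cells, against 10.24 and 9.66 in controls, changes of 3.25 and 3.06, each ± 0.72 (adjusted p = 0.0041 and 0.0069). In CD8 cells the change was 2.68 with vorinostat at 10 µM (adjusted p = 0.014) and 2.10 with romidepsin at 30 nM (adjusted p = 0.077, and 0.0014 with the block). Txn1 and Txnrd1 did not pass in these comparisons without the block, as given above. The fall was of Sesn2, a stress-induced sestrin, with vorinostat at 10 µM in CD4 cells (-1.20 ± 0.35, adjusted p = 0.024). The mitochondrial reductase Txnrd2 read lower at the top doses by 1.16 and 2.18 in CD8 cells and 1.20 and 1.42 in CD4 cells, each ± 1.16, and passed with the block only (adjusted p = 0.0021, 6.9e-06, 0.0011 and 0.00033).

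Among genes that remove peroxide and superoxide 14 of 19 were tested, and of 168 pairs 7 rose and 0 fell, while with the block 21 rose and 21 fell. The 7 without the block were 5 rises of Msrb3 and 2 of Sod2. Msrb3, a methionine sulfoxide reductase, was under the detection level in all 4 controls. It entered testing through drug arrays alone, so a call was all but bound to be a rise. At the top doses it was at least 3.04-fold and 2.15-fold higher in CD8 cells and 4.32-fold and 1.75-fold higher in CD4 cells, romidepsin before vorinostat. Sod2, the mitochondrial superoxide dismutase, rose in CD4 cells by 0.75 and 0.65, each ± 0.19 (adjusted p = 0.011 and 0.029). Of genes that supply NADPH, which both reductases consume, 10 of 12 were tested, and of 120 pairs 2 rose and 0 fell, which with the block became 28 and 18. Both rises without the block were of Taldo1, an enzyme of the pentose phosphate pathway, in CD4 cells (1.34 and 1.19, each ± 0.36). With the block only, Nnt, the mitochondrial transhydrogenase that makes NADPH, rose in 8 comparisons, Idh1 rose in 5 and Tkt fell in 7.

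NRF2 itself, Nfe2l2, passed no comparison without the block, with changes of -0.64 to 0.08, and with the block it fell with vorinostat at 2 µM in CD8 cells and romidepsin at 30 nM in CD4 cells (adjusted p = 0.017 and 0.039). Bach1, a repressor at the same elements, read 9.03 and 9.06 with romidepsin at 30 nM and 8.97 and 9.05 with vorinostat at 10 µM in CD4 cells, against 7.71 and 8.09 in controls. It passed in 4 comparisons with the block and in 0 without it, and those 2 changes were 1.15 and 1.11, each ± 0.62 (adjusted p = 0.23 and 0.26, and 0.00040 and 0.00057 with the block). Of the regulators 11 of 12 were tested, and of 132 pairs 2 rose and 6 fell, which with the block became 16 and 24. Keap1, which holds NRF2 back, read 6.65 and 6.87 with romidepsin at 30 nM and 6.52 and 6.80 with vorinostat at 10 µM in CD4 cells, against 7.61 and 7.85 in controls, falls of 0.97 and 1.07, each ± 0.29 (adjusted p = 0.025 and 0.016). In CD8 cells it differed by -0.66 and -0.81 (adjusted p = 0.18 and 0.058, and 0.00038 and 3.7e-05 with the block). The small Maf protein Maff fell in CD4 cells by 1.31 and 1.24, each ± 0.19, and differed by 0.34 and 0.10 in CD8 cells. Its response in CD8 cells was over that in CD4 cells by 1.66 and 1.34, each ± 0.27 (adjusted p = 0.0071 and 0.033), though CD8 controls read 4.24 and 4.41, at the detection level. Sqstm1, a cargo receptor that binds Keap1, rose in CD8 cells by 0.95 and 0.83, each ± 0.20 (adjusted p = 0.0059 and 0.0078).

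The other NRF2 targets numbered 9 tested of 12, and of 108 pairs 7 rose and 0 fell, which with the block became 29 and 9. The 7 were 4 rises of Blvrb and 3 of Cbr3, a count little over the shares of all genes that rose. Ephx1, an epoxide hydrolase, fell in 6 comparisons with the block and in 0 without it. Blvrb is a biliverdin and flavin reductase. It read 9.24 and 9.61 with romidepsin at 30 nM and 9.64 and 10.20 with vorinostat at 10 µM in CD8 cells, against 6.26 and 7.86 in controls. In CD4 cells it read 9.99 and 10.37 with romidepsin and 10.05 and 10.35 with vorinostat, against 7.21 and 8.67 in controls. The groups do not overlap in any of these comparisons, for which no share of all genes was counted. The changes were 2.37, 2.86, 2.24 and 2.26, each ± 0.60 (adjusted p = 0.017, 0.0029, 0.013 and 0.014). In the same CD4 groups Hmox1 fell, by calls that several of the other fits lost, as given above. Cbr3, a carbonyl reductase, was under the detection level in all 4 controls and at least 3.48-fold and 2.92-fold higher in CD8 cells at the top doses and 3.14-fold higher in CD4 cells with romidepsin (adjusted p = 0.027, 0.027 and 0.033). Like Msrb3, Cbr3 entered testing through drug arrays alone, so a call was all but bound to be a rise.

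The ATF4 programme, which in stressed cells raises amino acid uptake and Slc7a11, went the other way. All 11 of its genes were tested, and of 132 pairs 1 rose and 28 fell, which with the block became 8 and 45. The list's median change at the top doses was -0.55 with romidepsin and -0.53 with vorinostat in CD8 cells and -1.28 and -1.41 in CD4 cells. Trib3, a pseudokinase induced by ATF4, fell by 3.02 and 2.97 in CD4 cells, each ± 0.30 (adjusted p = 5.8e-06 and 1.0e-05). In CD8 cells it fell by 1.00 with romidepsin (adjusted p = 0.043) and differed by -0.42 with vorinostat (adjusted p = 0.39). The difference between the cell types was 2.01 and 2.55, each ± 0.43 (adjusted p = 0.029 and 0.0091). Trib3 read 5.68 and 5.29 in CD8 controls, against 8.30 and 7.88 in CD4 controls. A fall in CD8 cells thus had little room above the detection level, and the size of the difference is not measured. Slc7a5, a transporter of large amino acids, fell by 1.90 and 2.01 in CD4 cells, each ± 0.37 (adjusted p = 0.0015 and 0.0012). In CD8 cells it fell by 1.18 with vorinostat at 10 µM (adjusted p = 0.032) and differed by -0.95 with romidepsin at 30 nM (adjusted p = 0.12, and 0.0055 with the block). Vldlr, a lipoprotein receptor, fell by 5.05 and 4.47 in CD4 cells, each ± 0.76 (adjusted p = 0.00019 and 0.00062). In CD8 cells Vldlr read 4.11 and 5.01 with romidepsin at 30 nM and 3.13 and 4.02 with vorinostat at 10 µM, against 7.53 and 6.10 in controls. With vorinostat it lay under the detection level and was at least 5.86-fold lower (adjusted p = 0.0059), and with romidepsin it passed with the block only (adjusted p = 0.069 and 0.0056). Atf4 itself passed no comparison without the block, and with it fell with romidepsin at 10 and 30 nM in CD4 cells (adjusted p = 0.034 and 0.034).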

How the data were processed

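Per the submitters' processing notes the values are from GCRMA. The deposited table holds log2 values of 45101 probe sets on 28 arrays of the Mouse430_2 type, where the log base was read from the range of the values. The version, the settings and whether the replicate sets were normalized together are not given in the sources used here. Values bottom out at 2.2684 in replicate 1 arrays and at 2.2545 in replicate 2 arrays.

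With the platform annotation and RefSeq symbols, 34958 probe sets name 1 gene, 932 several and 9211 none. The brightest of a gene by its mean over all arrays stood for the gene. A value was called detected when it exceeded the mode of the table by 2 log2 units (4.27), and testing needed 2 such arrays a gene. A fold against a group whose arrays all lay under it is a bound taken from that level. Groups were taken from the labels.

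The 14 group means were estimated jointly with limma 3.58.1 in R 4.3.3 (lmFit and eBayes, 14 residual degrees of freedom) across all 9872 genes, and 27 contrasts were adjusted by Benjamini-Hochberg, each over all genes, at a threshold of 0.05. The number of arrays limits the precision. The members and lists were chosen with earlier results of these data known. All members are named. Of each list up to 4 genes with most calls, ties by size of change, are named, with Txnip, Nfe2l2, Keap1, Bach1 and Atf4.

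The replicate numbers pair the arrays. Deviations from group means of equally numbered arrays correlated at 0.762 to 0.958 in all 42 pairs of groups within a cell type. Blocking on replicate within CD4 and within CD8 arrays, which leaves 12 residual degrees of freedom, was an alternative, as were that block with an actin covariate, quantile normalization, equal medians, no or a stricter detection filter, the mean of all probe sets, eBayes with trend and robust, a fit per cell type and leaving out each array. The fit without the block was also run on simulated data with independent noise in each array. Such data lack the shared replicate effect, so that run does not show how the fit handles it.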

Additional observations from a re-analysis of the deposited data

Results flagged for a closer look

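The CD8 response minus the CD4 response differed from 0 for some genes by the test of that difference. With the replicate block only, this held for Mgst3 with romidepsin at 10 nM (-1.84) and at 30 nM (-1.39), for Gclm with romidepsin at 30 nM (-1.22) and vorinostat at 10 µM (-0.89), and for Hmox1 with romidepsin at 30 nM (1.21) and vorinostat at 10 µM (1.24). Hmox1 lay under the detection level in all 14 CD8 arrays, so its fitted values do not measure the size of a difference. Without the block it held for Maff (1.66 with romidepsin at 30 nM, 1.34 with vorinostat at 10 µM) and Trib3 (2.01 and 2.55). Maff read 4.24 and 4.41 in CD8 controls, at the detection level. Trib3 read 5.68 and 5.29 there, so a fall in CD8 cells had little room above that level. All of these comparisons share the control arrays of their cell type.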

How the results depend on the processing

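The 8 rises of members became 14 with the replicate block and 15 with the block and the actin covariate, and 7 to 10 when 1 array was left out. The 2 falls, both of Hmox1, became 8 with the block, 1 with no detection filter and 0 with quantile normalization, equal array medians, eBayes with trend and robust or a fit per cell type, and 0 to 2 with 1 array left out (0 without replicate 1 of the CD4 control). The 0 differences in response became 6 with the block, 8 with the actin covariate added and 0 to 3 with 1 array left out (3 without replicate 2 of the CD4 control). The 2 differences between controls became 1 with quantile normalization or equal medians, and 0 to 2 with 1 array left out (0 without replicate 1 of the CD4 control and 1 without replicate 2 of the CD8 control). The 1 call between doses became 11 with the block, 8 with the covariate added and 1 to 6 with 1 array left out (6 without either CD4 control). The 98 calls over the pathway lists became 383 with the block. The change of Txnrd1 in CD8 cells with vorinostat at 10 µM turned to 0.15 with the block and the covariate, and that of Gsr with vorinostat at 2 µM ran from -1.21 to 0.27 with 1 array left out. The causes were not tested. A fit per cell type gives no comparison between cell types. An arm left with 1 array was assumed to vary like the others. Levels near 4.27 are limited by background.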

Other observations

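The second probe set of Gclc, over the detection level in all 28 arrays, differed from control by -0.01 and 0.48 in CD8 cells with romidepsin at 30 nM and vorinostat at 10 µM, and by 0.43 and 0.17 in CD4 cells. Those of Gsr and Txnrd1 were over it in 14 arrays each, so no change is given. The second probe set of Mgst3 read at most 2.60 in all 28 arrays, under the detection level, so the rise of Mgst3 rests on 1 probe set.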
